A study of Rattus norvegicus with 24 samples.

Results

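The phase II conjugation enzymes described here are the genes whose array name begins with Ugt1, Ugt2, Sult, Gst or Mgst followed by a further letter or digit. The rule was applied to the gene names in the deposited array files and used no measured value. It found 49 gene names on 59 probes, out of 26278 gene names on 30367 probes. The glutathione S-transferases (Gst) gave 22 names, the sulfotransferases (Sult) 13, the Ugt2 glucuronosyltransferases 9, the microsomal glutathione transferases (Mgst) 3 and the Ugt1 glucuronosyltransferases 2. A gene was tested where at least 1 of its probes was well above background on at least 6 of the 24 arrays, which kept 43 of the 49 names among 18641 genes in all. The 6 that did not pass were Gstt4, Sult1d1, Sult2b1, Sult6b1, Ugt2a1 and Ugt2b7. All measurements came from liver RNA of male Wistar rats, 1 rat per one-colour Agilent array. Until the study the rats ate rodent pellets. From 6 months of age they ate a purified diet for 12 weeks. Of the 24 rats, 6 ate low copper (below 0.3 mg/kg) with 30% sucrose and 6 ate adequate copper (125 mg/kg) with 30% sucrose. Another 6 ate low copper with 10% sucrose, and 6 ate adequate copper with 10% sucrose, which is called the control here. The source labels write High Cu for both diets with 125 mg/kg, which are called adequate copper here. Starch and dextrin made up the carbohydrate. The series studied these diets as a rat model of fatty liver not caused by alcohol. The labels give the diet each rat ate, and copper or fat in these livers was not analysed here.

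Conjugation enzymes make small molecules more soluble so that they can leave the cell in bile or urine. Glucuronosyltransferases of the Ugt families move glucuronic acid from UDP-glucuronic acid onto phenols, steroids, bilirubin and bile acids. Sulfotransferases move sulfate from PAPS onto hormones, phenols and bile acids, and glutathione transferases couple glutathione to electrophiles such as products of lipid peroxidation. Hepatocytes hold most of these enzymes at high amounts in the liver. Many of the genes lie in tandem families on the chromosome, so a short probe has to tell close relatives apart.

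A level here is the log2 of a spot's signal divided by its array's 75th percentile, so a level of 0 is as bright as that percentile. Levels of different probes were not compared with each other as amounts of RNA, since probes differ in how well they bind. A difference is given as a log2 value with its standard error (SE) from the model. A gene was called where the limma test, adjusted by Benjamini-Hochberg over the 18641 genes, gave p under 0.05. Nothing in the labels states separate cohorts, and the p-values rest on the spread between rats within a diet. On single arrays that percentile was a signal of 433 to 1284, the local background was 38 to 48, and from 59.9 to 73.4% of the probes passed as well above background. The arrays lay on 3 slides that do not cross evenly with diet. Slide 1 held the 6 rats with low copper and 30% sucrose and rats 1 and 2 with adequate copper and 30% sucrose. On slide 2 were rats 3 to 6 with adequate copper and 30% sucrose and rats 1 to 4 with low copper and 10% sucrose. Slide 3 held rats 5 and 6 of that diet and the 6 control rats. Sucrose at a fixed copper level was therefore compared across slides, and 2 rats carried each copper comparison within a slide. The main fit has no slide term. In the diets split over slides the spread between rats thus includes slide, and the p-values do not cover slide differences between diets. The local background was 38 to 40 on slide 3, which held all control rats, and 40 to 48 on slides 1 and 2. All 12 hepatocyte markers examined were measured, and their summed level lay between 10.2 and 11.3 in the 24 rats.

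The following 7 probes of 60 bases carry the findings below, and all positions are those of the files for the rat build rn4. The first 3 are shown because their genes passed the test in several comparisons. These are the probes of Gstm6l (chr2:203469465-203469524, minus strand), Ugt1a9 (chr9:86987459-86987518, plus strand) and Sult2a2 (chr1:74538140-74538199, minus strand). They are written in the transcript's sense, 5′ to 3′.
Gstm6l: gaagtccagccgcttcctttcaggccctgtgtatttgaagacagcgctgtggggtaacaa
Ugt1a9: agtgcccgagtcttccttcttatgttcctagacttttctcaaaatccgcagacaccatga
Sult2a2: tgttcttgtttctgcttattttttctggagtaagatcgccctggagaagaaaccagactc

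Both Gstm3 probes are shown because that gene varied most between rats. The files place both at chr2:203532376-203532435 on the minus strand. They share 58 of 60 bases, and the capitals mark the 2 that differ, C53G and G55C counted from the 5′ end of the first probe.
Gstm3 probe 1: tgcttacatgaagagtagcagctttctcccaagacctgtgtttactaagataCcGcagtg
Gstm3 probe 2: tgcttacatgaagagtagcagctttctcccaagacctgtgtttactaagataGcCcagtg

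The probes of Sult2a1 and Sult2al1 (now named Sult2a6) are shown because these genes of 1 chromosome region, both with wide spread, lay on opposite sides of 0 in the same comparison. Their genome ranges, chr1:75632843-75646550 and chr1:74554002-74555601 on the minus strand, are longer than the probes. At their best alignment 35 bases match, and the capitals mark the longest run they share there, which is 7 bases long.
Sult2a1: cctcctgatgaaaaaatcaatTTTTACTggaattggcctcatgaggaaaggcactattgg
Sult2al1: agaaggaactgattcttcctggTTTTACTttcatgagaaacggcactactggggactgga

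All 59 member probes were compared with each other without gaps, in 1711 pairs. No pair from different genes shared more than 36 bases. The closest such pair was Gstm4 with Gstm3. In 2 pairs 40 bases or more were shared, and in each both probes carried the same gene name (Gstm3 and Sult1b1). On the chromosome, 8 Gstm genes lie within 149 kb on chromosome 2, 9 Ugt2 names within 675 kb on chromosome 14, and 3 Sult2a names within 1108 kb on chromosome 1. Through transcript accessions, 52 of the 59 probes matched a current symbol, and 5 names have changed. Array name Gsta3 is now Gsta1, Gsta5 is now Gsta3, Ugt2b15 is now Ugt2b35, Ugt2b17 is now Ugt2b15, and Sult2al1 is now Sult2a6. Array names are used below.

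No member was called for copper averaged over both sucrose levels, nor for sucrose averaged over both copper levels, and limma called 0% of all genes in either. At an unadjusted p under 0.05 there were 3 members for copper and 5 for sucrose, against 8.80% and 10.8% of all genes. With array weights 1 member was called above for copper, where 860 of the 18641 genes were, and 0 for sucrose. The smallest p-values for mean copper were those of Ugt1a9 at 0.40 (SE 0.14, limma adjusted p = 0.397), Sult2a1 at 0.76 (SE 0.33, limma adjusted p = 0.502) and Gstcd at 0.14 (SE 0.065, limma adjusted p = 0.517). For mean sucrose they were those of Sult2a2 at 0.42 (SE 0.14, limma adjusted p = 0.358), Gstt2 at -0.27 (SE 0.10, limma adjusted p = 0.376) and Gstt3 at 0.56 (SE 0.22, limma adjusted p = 0.383). Low copper at 30% sucrose and 30% sucrose at low copper also gave 0 called members and 0% of all genes in limma, with 9 and 3 members at an unadjusted p under 0.05, against 9.87% and 9.58% of all genes. Both changes together, set against control, gave 0 called members in limma, against 1.72% of genes called above and 0.0376% called below. At an unadjusted p under 0.05 there were 4 members in that comparison, against 17.1% of all genes. With array weights 1 member was called above and 2 below, where 1966 and 160 of the 18641 genes were. Calls came in the comparisons of a single change with the control diet and in the interaction.

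Low copper at 10% sucrose gave 4 of 43 members called above, where 18% of all genes were called above, and 0 called below, where limma called 0.595% of all genes below. The 4 were Sult4a1, Gstm6l, Ugt1a9 and Sult2a2. Sult4a1 had passed the filter only through arrays of diets other than control. The 30% sucrose diet at adequate copper gave 3 members called above, against 18.4% of genes, and 2 called below, against 2.48%. Those above were Sult2a2, Gstm6l and Ugt1a9, and those below were Gstt2 and Mgst1. The interaction, which is the copper difference at 30% sucrose minus that at 10% sucrose, gave 0 members called above in limma against 1.94% of genes, and 3 below (Gstm6l, Sult2a2 and Ugt1a9) against 18.9%. At an unadjusted p under 0.05 there were 7, 13 and 14 members in these comparisons, against 28.1%, 32.9% and 33.5% of all genes. The shares of members called above or below were thus near or under those of all genes, except for the 2 members called below for sucrose. Both comparisons use the same 6 control rats, so a gene with low or high control levels can differ in both.

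**Figure D1:**
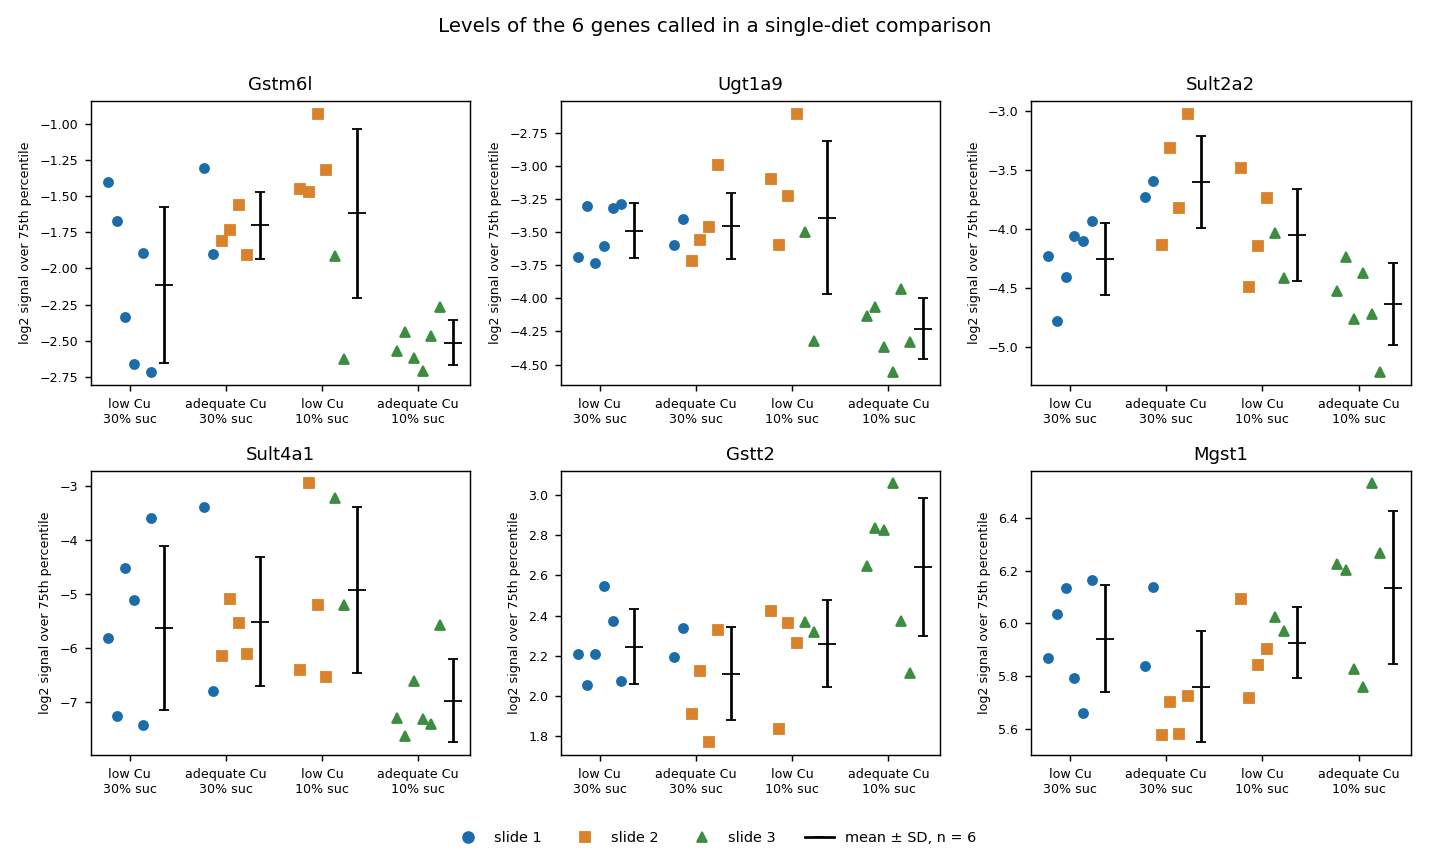
Level of the 6 called genes in each rat (log2 of signal relative to the array's 75th percentile, vertical axis) by diet (horizontal axis), with colour and shape by slide and the mean ± SD over 6 rats beside each diet. Control rats, all on slide 3, lie lowest for Gstm6l, Ugt1a9 and Sult2a2 with a median of -2.52, -4.23 and -4.62, and rats 5 and 6 with low copper and 10% sucrose, also on slide 3, are marked by triangles.

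Among the glucuronosyltransferases, Ugt1a9 was called in 3 comparisons. In control rats its level ran from -4.56 over a median of -4.23 to -3.93. With low copper and 10% sucrose it ran from -4.32 over -3.36 to -2.61, which overlaps the control rats through 1 rat. With adequate copper and 30% sucrose it ran from -3.72 over -3.51 to -3.00, and with both changes from -3.73 over -3.46 to -3.29. Neither of these diets overlapped the control rats. Its level was higher than control by 0.84 with low copper at 10% sucrose (SE 0.20, 1.79-fold, limma adjusted p = 0.00435). With 30% sucrose at adequate copper it was higher by 0.77 (SE 0.20, 1.71-fold, limma adjusted p = 0.00749). The diet with both changes stood 0.74 above control (SE 0.20, limma adjusted p = 0.0517), which passed the test without any 1 of 6 rats (rat 4 with both changes, rats 3 to 6 with low copper and 10% sucrose, control rat 5; limma adjusted p down to 0.0133). The interaction was -0.87 (SE 0.28, limma adjusted p = 0.0282).

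These Ugt1a9 values moved with the slide. The 4 rats of the low copper and 10% sucrose diet on slide 2 lay between -3.60 and -2.61, and the 2 on slide 3 at -3.50 and -4.32. With slide as a block the difference for low copper at 10% sucrose was 0.32, that for sucrose at adequate copper 0.016 and the interaction -0.31, and none was called. With that block 0 genes of the whole array were called for either single change and 10 for the interaction. A call lost there is thus not particular to a gene. The call in the interaction also ended when rat 6 with adequate copper and 30% sucrose, rat 1 with low copper and 10% sucrose or control rat 4 was left out (limma adjusted p up to 0.0512).

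Ugt1a6, which acts on small flat phenols, shares its 3′ exons with the other Ugt1a genes, each of which has a first exon of its own. The files place its 2 probes at chr9:87098271-87098330 and chr9:87097621-87097680. Whether they lie in the shared exons was not determined, so their values may not be those of Ugt1a6 alone. In the rats the brighter Ugt1a6 probe ran from 5.71 over a median of 5.96 to 6.10 with both changes, from 5.60 over 5.86 to 6.02 with adequate copper and 30% sucrose, from 5.63 over 5.86 to 6.31 with low copper and 10% sucrose, and from 5.84 over 5.93 to 6.36 in control rats. The 4 ranges overlapped. Its differences lay between -0.20 and 0.11 in the 4 comparisons of single changes, and none was called. A second, dimmer Ugt1a6 probe followed the first only loosely over the 24 rats (Pearson r = 0.44, a description).

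In the Ugt2 family, whose enzymes act mainly on steroids and bile acids, 7 of 9 genes were tested and none was called in any of the 8 comparisons. Low copper at 30% sucrose gave 6 of 7 above 0, with a family median of 0.31 against -0.042 for all genes. Ugt2b37 had the largest of the differences among the bright Ugt2 probes, 0.37 (SE 0.17, limma adjusted p = 0.482). Its level ran from 5.10 over a median of 5.30 to 5.62 with both changes and from 4.27 over 5.15 to 5.25 with adequate copper and 30% sucrose, so the ranges overlapped. A second Ugt2b37 probe did not follow the first (Pearson r = -0.019 over 24 rats, a description) and differed by -0.0074. Ugt2b15 differed by 0.35 (SE 0.18), Ugt2b by 0.31 (SE 0.13) and Ugt2b17 by 0.27 (SE 0.12). With slide as a block 5 of 7 were above 0, with a median of 0.13 against -0.085 for all genes. The value of Ugt2b17 was then -0.0002 and that of Ugt2b 0.14.

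Ugt2b1 stood apart from its family by its low level in part of the control rats. Its control levels ran from 1.53 over 3.17 to 3.76, with rats 1 and 3 at 1.53 and 1.88. The other 3 diets held no rat as low as these 2, with medians of 3.41 to 3.64. The difference was 0.71 for low copper at 10% sucrose (SE 0.34, limma adjusted p = 0.174) and 0.76 for sucrose at adequate copper (SE 0.34, limma adjusted p = 0.116). The groups overlapped in both. Ugt2a3, an enzyme of liver and intestine, gave 0.39 for low copper at 30% sucrose (SE 0.18, limma adjusted p = 0.497), and Ugt2b10 gave 0.17.

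Among the sulfotransferases, 10 of 13 genes were tested. Sult2a2, an enzyme of the family that sulfates hydroxysteroids and bile acids, was called in 3 comparisons. Its level ran from -4.78 over a median of -4.17 to -3.93 with both changes, from -4.13 over -3.66 to -3.02 with adequate copper and 30% sucrose, from -4.49 over -4.09 to -3.48 with low copper and 10% sucrose, and from -5.21 over -4.62 to -4.23 in control rats. Adequate copper with 30% sucrose did not overlap control. Its probe was well above background on 23 of 24 arrays. With sucrose at adequate copper its level was higher by 1.03 (SE 0.20, 2.05-fold, limma adjusted p = 0.00169), in 6 of 6 rats beyond the control mean. With low copper at 10% sucrose it was higher by 0.59 (SE 0.20, limma adjusted p = 0.0442), and the interaction was -1.24 (SE 0.29, limma adjusted p = 0.00485).

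The Sult2a2 calls differed in how much they leaned on single rats. For low copper at 10% sucrose the call ended without any 1 of 11 rats, which were rats 1 and 5 with both changes, rat 2 with adequate copper and 30% sucrose, rats 1, 3, 4 and 5 with low copper and 10% sucrose, and control rats 1, 3, 5 and 6 (limma adjusted p up to 0.127). For sucrose at adequate copper no rat left out ended the call (limma adjusted p up to 0.00449). Blocking on slide gave 0.41 and 0.80, and neither was called, as 0 genes of the whole array were called in either comparison. With quantile normalization they were 0.13 and 0.62, and neither was called.

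Sult4a1, a relative known mainly from brain, was well above background in 0 of 6 control rats. It was so in 2 of 6 rats with low copper and 10% sucrose, 2 of 6 with adequate copper and 30% sucrose and 3 of 6 with both changes. Low copper at 10% sucrose gave a measured difference of 2.06 (SE 0.70, limma adjusted p = 0.0408) between means of -4.92 and -6.99. Its probe passed the filter of 6 arrays on 7 arrays, and no control array was among them. The gene thus entered the test only through the diets where it was brighter, so this p-value is not independent of the filter. Without the filter it was not called (limma adjusted p = 0.0508). With each control array set at its own value or at its lowest signal well above background, whichever was higher, the level was at least 2.80-fold higher by this scaling. That mean includes 4 of 6 rats with low copper not well above background. The difference was 0.66 with normexp (limma adjusted p = 0.0546), 1.44 with quantile normalization (limma adjusted p = 0.221) and 1.52 in values from the authors' table (limma adjusted p = 0.206), none of them called. The call was kept in 19 of 35 other settings. The bright rats were few, at -2.95 for rat 2 and -3.22 for rat 5, and the call ended without either. It also ended without rat 3 of that diet or without any 1 of control rats 1 to 5 (limma adjusted p up to 0.122).

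Sult2a1, the main hydroxysteroid sulfotransferase, was not called in any comparison. Its level ran from 2.20 over a median of 4.37 to 4.77 with both changes and from 0.72 over 2.75 to 4.45 with adequate copper and 30% sucrose. It ran from 3.30 over 4.27 to 4.53 with low copper and 10% sucrose and from 2.97 over 3.86 to 4.30 in control rats. Every pair of diets overlapped. The difference was -1.02 for sucrose at adequate copper (SE 0.47, limma adjusted p = 0.133) and 1.20 for low copper at 30% sucrose (SE 0.47, limma adjusted p = 0.473), and both comparisons use the rats with adequate copper and 30% sucrose. Without rat 5 of that diet the first became -1.35 and passed the test (limma adjusted p = 0.0427).

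Sult2al1, which lies at the other end of that region beside Sult2a2, took the opposite sides. Sucrose at adequate copper gave 0.87 (SE 0.35, limma adjusted p = 0.0784), and low copper at 30% sucrose gave -0.62 (SE 0.35, limma adjusted p = 0.547). The rats lay from 2.88 over a median of 3.95 to 4.35 with adequate copper and 30% sucrose and from 1.93 over 3.12 to 3.64 in control rats, with overlap.

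Sult1c2 had its lowest mean in the diet with both changes, running from -2.44 over a median of -1.78 to -1.24, and its highest in control rats, from -1.47 over -0.71 to -0.43. The difference was -1.05 (SE 0.34, limma adjusted p = 0.0885), and the groups overlapped through control rat 5. Without rat 2 or rat 6 with low copper and 10% sucrose, which enter that fit only through the spread, it passed the test (limma adjusted p down to 0.0411). The other tested sulfotransferases included the phenol enzyme Sult1a1, with -0.26 for sucrose at adequate copper (SE 0.13, limma adjusted p = 0.152), and the thyroid hormone enzyme Sult1b1, with -0.35 (SE 0.14, limma adjusted p = 0.0853). The second Sult1b1 probe, of which 50 bases lie inside the first, gave -0.33. Sult1c3 gave -0.28 (SE 0.13, limma adjusted p = 0.119), and Sult1c2a gave -0.28 on its main probe. Sult5a1, a dim probe, gave -0.73 for 30% sucrose at low copper (SE 0.28, limma adjusted p = 0.471).

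Among the glutathione transferases, 21 of 22 genes were tested. Gstm6l, a class mu gene of the chromosome 2 cluster, was called in 3 comparisons. Its level ran from -2.72 over a median of -2.11 to -1.40 with both changes, from -1.91 over -1.77 to -1.31 with adequate copper and 30% sucrose, from -2.63 over -1.46 to -0.93 with low copper and 10% sucrose, and from -2.71 over -2.52 to -2.27 in control rats. Control rats overlapped both low copper diets but not the diet with adequate copper and 30% sucrose. Its level was higher than control by 0.89 with low copper at 10% sucrose (SE 0.23, 1.86-fold, limma adjusted p = 0.00888). With sucrose at adequate copper it was higher by 0.81 (SE 0.23, 1.75-fold, limma adjusted p = 0.0164), and the interaction was -1.30 (SE 0.33, limma adjusted p = 0.00807). No rat left out ended these calls.

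Slide moved with Gstm6l too. The 4 rats on slide 2 with low copper and 10% sucrose lay between -1.47 and -0.93, and the 2 on slide 3 at -1.91 and -2.63. Blocking on slide gave 0.24 and -0.22 with an interaction of -0.75, and none was called. Over the whole array 0, 0 and 10 genes were called with that block. Within slide 1 the 6 rats with both changes differed by -0.51 from the 2 with adequate copper and 30% sucrose.

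Gstt2, a theta class transferase, fell by 0.53 with sucrose at adequate copper (SE 0.15, 1.44-fold lower, limma adjusted p = 0.0128). Levels ran from 1.77 over a median of 2.16 to 2.34 there and from 2.12 over 2.74 to 3.06 in control rats, with overlap. With low copper and 10% sucrose it ran from 1.83 over 2.34 to 2.42, a difference of -0.38 (SE 0.15, limma adjusted p = 0.0764). With both changes it ran from 2.06 over 2.21 to 2.55, a difference of -0.40 (SE 0.15, limma adjusted p = 0.145). No rat left out ended its call. With slide as a block the difference was -0.48 and not called, as 0 genes of the whole array were called there.

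Of the other class theta genes, Gstt3 gave 0.70 for sucrose at adequate copper (SE 0.31, limma adjusted p = 0.111), with 0.47 on its second probe, and Gstt1 gave -0.12 (SE 0.13). The alpha class holds the abundant liver transferases, and Gsta2 gave the second largest difference for low copper at 30% sucrose among the tested members, 0.82 (SE 0.33, limma adjusted p = 0.474). Its level ran from 6.20 over a median of 7.05 to 7.55 with both changes, from 5.21 over 6.11 to 7.26 with adequate copper and 30% sucrose, from 5.78 over 5.93 to 6.72 with low copper and 10% sucrose, and from 5.75 over 6.39 to 7.36 in control rats. These ranges overlapped.

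Gsta2 turned direction with slide. The 2 rats with adequate copper and 30% sucrose on slide 1 were at 6.93 and 7.26, and the 4 on slide 2 between 5.21 and 6.55. With slide as a block, low copper at 30% sucrose gave -0.13 and 30% sucrose at low copper gave -0.67, where it had been 0.88 (SE 0.33, limma adjusted p = 0.471). Gsta5 gave 0.45 for low copper at 30% sucrose (SE 0.21, limma adjusted p = 0.497), and its second probe gave 1.02. For low copper at 10% sucrose the 2 Gsta5 probes had opposite signs, at -0.20 and 0.75. In low copper at 30% sucrose Gsta3 gave 0.25 (SE 0.16). Gsta4, which clears the lipid peroxidation product 4-hydroxynonenal, gave 0.046 in that comparison (SE 0.11).

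Of the remaining Gst genes none was called. Gstp1, the pi class enzyme known in rat liver as a marker of preneoplastic foci, ran from -0.20 over a median of 0.30 to 0.86 in control rats and gave -0.36 for sucrose at adequate copper (SE 0.24, limma adjusted p = 0.313). Gstm1, an abundant class mu enzyme of liver, gave 0.18 for low copper at 30% sucrose (SE 0.20). Gstz1, which isomerises maleylacetoacetate in tyrosine breakdown, gave 0.11 (SE 0.13), and the mitochondrial and peroxisomal Gstk1 gave 0.057 (SE 0.13). Gsto1, which reduces dehydroascorbate, gave 0.24 (SE 0.17). The chromosome 2 neighbours Gstm4, Gstm5, Gstm6 and Gstm7 gave 0.19, 0.14, -0.29 and -0.027 in that comparison, while the dim Gsto2 gave -0.19 and Gstcd 0.074.

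Of the microsomal glutathione transferases, membrane proteins unrelated in structure to the Gst genes, Mgst1 was called. It is the abundant liver member. Levels ran from 5.58 over a median of 5.71 to 6.14 with adequate copper and 30% sucrose and from 5.76 over 6.21 to 6.53 in control rats, with overlap. With sucrose at adequate copper it fell by 0.37 (SE 0.13, 1.30-fold lower, limma adjusted p = 0.0424). The call ended without any 1 of rats 1, 3, 4, 5 and 6 of that diet or control rats 1, 2, 5 and 6 (limma adjusted p up to 0.111). Blocking on slide gave -0.38, which was not called, as 0 genes of the whole array were called with that block. Mgst2, which can make leukotriene C4, gave -0.059 (SE 0.19) and Mgst3 -0.29 (SE 0.23, limma adjusted p = 0.414).

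The members called above all had dim probes, with levels from -5.76 to -1.99 as means over 24 rats. Dim genes were called above in large numbers across the array. In low copper at 10% sucrose 38.6% of all genes with a level below -4 were called above, 27.4% of those from -4 to -2, 11.4% of those from -2 to 0 and 0.136% of those above 4. In sucrose at adequate copper these shares were 37.1%, 27.9%, 12.3% and 0.612%. Of the members, 4 had a level below -4, 3 from -4 to -2 and 6 from -2 to 0. With slide as a block the median difference of all genes below -4 moved from 0.61 to 0.19 for copper and from 0.60 to -0.019 for sucrose. The part that slide and signal level have in the member calls was not tested further.

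**Figure D2:**
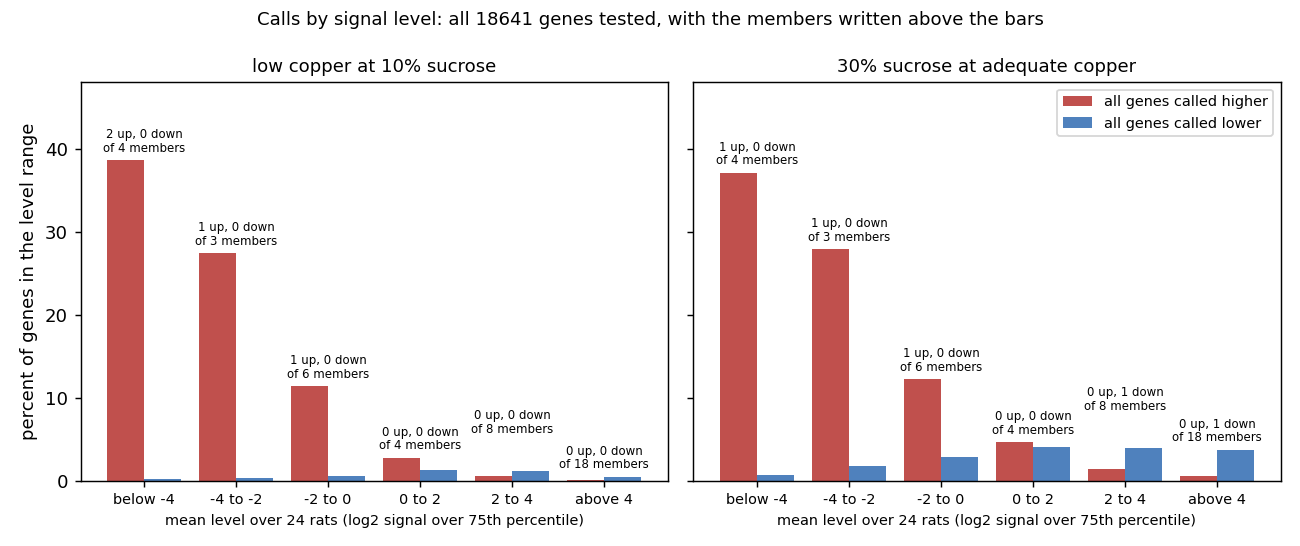
Share of all 18641 tested genes called higher (red) or lower (blue) in each range of mean level, as percent on the vertical axis, for both single changes against the control diet, with the count of called members written above each pair of bars. The share called higher falls from 38.6% and 37.1% of genes below -4 to 0.136% and 0.612% of genes above 4, and the 18 members above 4 hold no call above and 1 below.

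The bright members formed a pattern of small differences. In all, 18 members had a mean level above 4, a limit set after the values were seen. They were Gsta2, Gsta3, Gsta4, Gsta5, Gstk1, Gstm1, Gstm2, Gstz1, Mgst1, Mgst3, Sult1a1, Sult1b1, Sult1c3, Ugt1a6, Ugt2b, Ugt2b15, Ugt2b17 and Ugt2b37. Just inside the limit were Gstk1 at 4.18 and Gstm2 at 4.33, and just outside Sult2a1 at 3.67 and Ugt2b1 at 3.42. Low copper at 30% sucrose gave 18 of 18 above 0, with differences from 0.046 to 0.82 and a median of 0.23, where 41.3% of all 1471 genes of that level were above 0 and their median was -0.032. Low copper at 10% sucrose gave 0 of 18 above 0, from -0.43 to -0.024 with a median of -0.13, where 50.5% of those genes were above 0 and their median was 0.0018.

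Sucrose showed the mirrored picture. At low copper, 30% sucrose gave 17 of 18 above 0, with a median of 0.16 against -0.020 for bright genes. At adequate copper it gave 1 of 18 above 0, with a median of -0.21 against -0.0005. The interaction was above 0 in 18 of 18, with a median of 0.39 against -0.021, and in 46.0% of bright genes. These comparisons share diets, so their counts are not independent of each other. Every copper difference was above 0 at 30% sucrose and below 0 at 10% sucrose, so an interaction above 0 in all 18 follows by arithmetic. It also follows that the lowest mean is that of a diet with a single change. The highest must then be that of control or of both changes. The lowest of the 4 diet means was that of adequate copper with 30% sucrose in 14 of 18 and of low copper with 10% sucrose in 4 of 18, against 26.4% and 14.1% of bright genes. The highest was control in 10 and both changes in 8. A list of 14 measured other conjugation enzymes had medians on the same sides. They were 0.17 and -0.13 for low copper at 30% and 10% sucrose, 0.093 and -0.13 for sucrose at low and adequate copper, and 0.24 for the interaction. The 12 hepatocyte markers had 0.058, -0.13, -0.054, -0.14 and 0.026 in that order, on the other side only for sucrose at low copper. These directions were thus not particular to the 18 bright members.

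Of these 18 members, limma called 1 in 1 comparison, Mgst1 for sucrose at adequate copper. The 8 members from 2 to 4 did not show the pattern, with 4 of 8 above 0 for low copper at 30% sucrose and 5 of 8 for low copper at 10% sucrose, against 61.0% and 36.0% of all genes of that level. The 4 members from 0 to 2 (Gstp1, Gstt1, Sult1c2a and Ugt2a3) lay on the same sides as the bright members, with 4 of 4 above 0 for low copper at 30% sucrose, 0 of 4 for low copper at 10% sucrose and 0 of 4 for sucrose at adequate copper, against 59.9%, 40.8% and 42.8% of genes of that level.

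**Figure D3:**
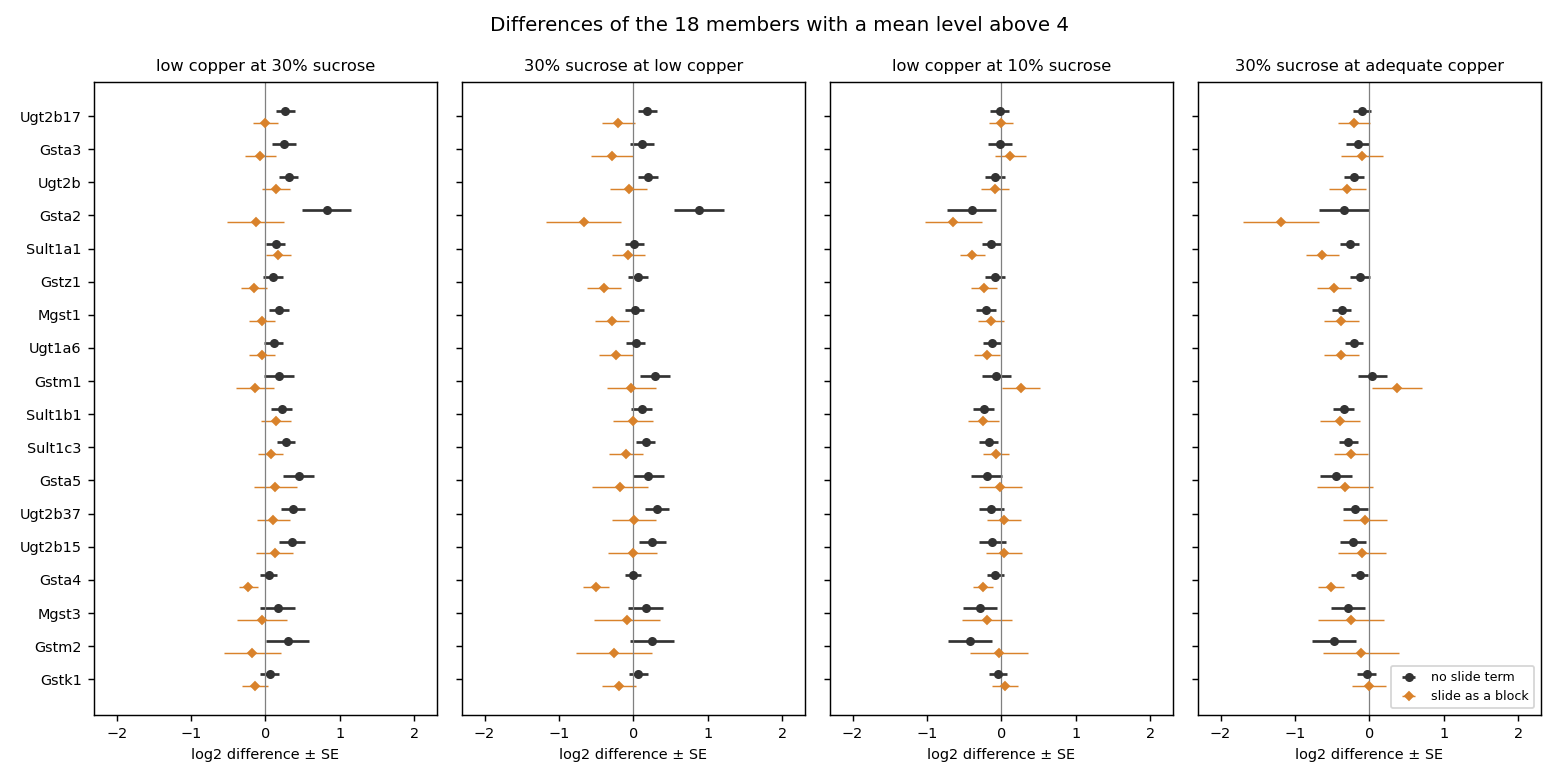
Log2 difference with its SE (horizontal axis) of the 18 members with a mean level above 4 (vertical axis, brightest at the top) in 4 comparisons, without a slide term (black) and with slide as a block (orange). Without a slide term 18, 17, 0 and 1 of 18 lie above 0 from left to right, and with the block 7 of 18 do in the first panel and 5 of 18 in the third.

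Slide and single rats moved with this pattern. With slide as a block, 7 of 18 were above 0 for low copper at 30% sucrose, when 15.8% of bright genes were, and 5 of 18 for low copper at 10% sucrose, when 50.8% were. For sucrose at adequate copper 1 of 18 was above 0, against 31.5% of bright genes, and for the interaction 14 of 18, against 24.9%. At low copper, 30% sucrose was counted with the block over all 43 members only. There 29 of 43 were above 0 without the block and 10 with it. Their median moved from 0.060 to -0.19, and that of all genes from -0.053 to -0.16. Bright genes had a median of -0.32 with the block. Among the rats with adequate copper and 30% sucrose, the 2 on slide 1 had a higher mean than the 4 on slide 2 in 17 of 18 bright members, by a median of 0.36. The same held for 92.7% of all bright genes, by a median of 0.32. In the diet with low copper and 10% sucrose the 4 rats on slide 2 were above the 2 on slide 3 in 7 of 18.

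Single rats, 2 in number, were often the lowest of their diet. Rat 5 with adequate copper and 30% sucrose was lowest in 19 of 43 members and in 12 of 18 bright members, against 19.7% of bright genes. Rat 2 with low copper and 10% sucrose was lowest in 22 of 43 and in 12 of 18, against 25.2%. Both rats stood out by the neutrophil gene S100a8, at 3.18 and 0.19, while the other 22 rats lay between -5.36 and -0.92. Without these 2 rats, an alternative added after the values were seen, 16 of 18 bright members were above 0 for low copper at 30% sucrose and 3 of 18 for low copper at 10% sucrose. Their part in the pattern was not tested further. In bulk liver, fewer cells of a type and less RNA per cell cannot be told apart.

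The spread between rats on 1 diet was wide for part of the family. The median SD within a diet was 0.34 over the 43 members against 0.32 over all genes. In 10 of 43 members the SD lay above the 95th percentile of genes of the same level range. Gstm3 had the widest, 1.39, with levels over a range of 5.28, or 39.0-fold. With both changes it ran from -2.37 over a median of -1.54 to 0.52, with adequate copper and 30% sucrose from -3.58 over -0.83 to 1.71, with low copper and 10% sucrose from -2.66 over -1.77 to 1.51, and in control rats from -2.65 over -1.82 to 0.17. All 4 diets held both high and low rats. The 2 Gstm3 probes printed above followed each other over the 24 rats (Pearson r = 0.998, a description, since 58 of their 60 bases are the same). No diet difference of Gstm3 passed the test, with 0.67 for sucrose at adequate copper (SE 0.75, limma adjusted p = 0.575).

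**Figure D4:**
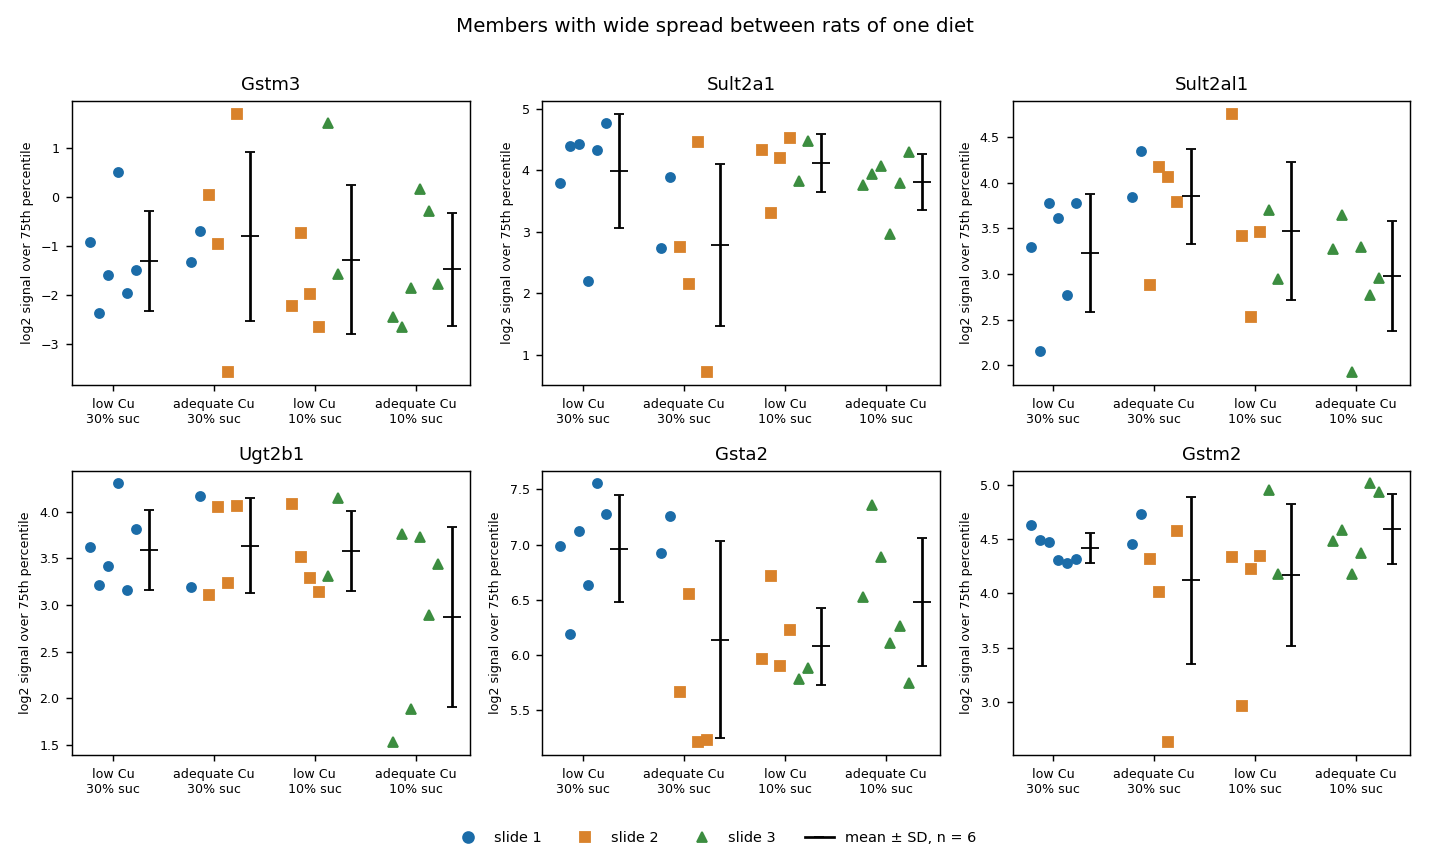
Level in each rat (log2 of signal relative to the array's 75th percentile, vertical axis) by diet (horizontal axis) of 6 members with wide spread between rats, with colour and shape by slide and the mean ± SD over 6 rats. Gstm3 ranges from -3.58 to 1.71 within the rats given adequate copper and 30% sucrose, and Sult2a1 has single low rats in that diet and with both changes.

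Some rats stood at the end of the range for several genes. For Gstm3 the highest were rat 6 with adequate copper and 30% sucrose at 1.71 and rat 5 with low copper and 10% sucrose at 1.51, and the lowest was rat 5 with adequate copper and 30% sucrose at -3.58. For Sult2a1 the lowest was the rat 6 named for Gstm3 at 0.72, with rat 4 of its diet at 2.16. For Gstm2 the lowest were again rat 5 with adequate copper and 30% sucrose at 2.63 and rat 2 with low copper and 10% sucrose at 2.96. The other members above the 95th percentile were Sult4a1, Sult2al1, Ugt2b1, Sult1c2, Gsta2, Gstt3 and Gstm7, with an SD within diets from 0.51 to 1.29. At the steady end Gstcd, which carries a transferase-like domain, had an SD of 0.13. Gsta4 had 0.18, Ugt1a6 0.20 and Ugt2b17 0.20.

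The genes that supply the conjugation reactions were followed in lists, and their counts stand beside the shares of all genes given above, 18.4% above and 2.48% below for sucrose at adequate copper and 18% and 0.595% for low copper at 10% sucrose. With slide as a block limma called 0 genes of the whole array in either comparison (758 and 1252 genes at an unadjusted p under 0.05), so each call in these lists for these 2 comparisons ended. Of the genes for UDP-glucuronic acid supply, 4 of 9 were measured. Ugp2, which makes UDP-glucose, fell by 0.68 with sucrose at adequate copper (SE 0.21, limma adjusted p = 0.0248), while the transporter Slc35d1 rose by 0.55 (SE 0.18, limma adjusted p = 0.0344). Blocking on slide gave -0.79 and -0.23. Ugp2 and Ugdh, which oxidises UDP-glucose to UDP-glucuronic acid, had interactions above 0, at 0.99 (SE 0.30, limma adjusted p = 0.0213) and 0.71 (SE 0.23, limma adjusted p = 0.0304). The list's median difference was 0.45 for low copper at 30% sucrose and -0.28 for sucrose at adequate copper, against -0.042 and 0.067 over all genes.

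All 9 genes of PAPS supply were measured. Sucrose at adequate copper gave 0 called above and 2 below. Bpnt1, which removes the by-product of sulfation, fell by 0.38 (SE 0.10, limma adjusted p = 0.0111). The Golgi PAPS transporter Slc35b2 fell by 0.37 (SE 0.11, limma adjusted p = 0.0156). Blocking on slide gave -0.48 and -0.22. The list's median without the block was -0.079.

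Of the genes of glutathione supply and recycling, 20 of 23 were measured. Sucrose at adequate copper gave 2 called above and 1 below. Chac1, which breaks down glutathione, rose by 1.05 (SE 0.23, limma adjusted p = 0.00291). The cystine importer subunit Slc7a11 rose by a measured 1.44 (SE 0.22, limma adjusted p = 0.000573) from levels not well above background in any control rat. Gnmt, a methyltransferase upstream of cysteine supply, fell by 0.45 (SE 0.16, limma adjusted p = 0.0416). Low copper at 10% sucrose gave the same 2 called above, Chac1 at 0.93 (SE 0.23, limma adjusted p = 0.00566) and Slc7a11 at 1.36 (SE 0.22, limma adjusted p = 0.000816), and 0 below. For sucrose and for copper, the slide block left Chac1 at 0.33 and 0.46, and Slc7a11 at 0.48 and 0.69. The list's median was -0.081 for sucrose at adequate copper and -0.16 for low copper at 10% sucrose.

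Of the other conjugation enzymes, 14 of 18 were measured. Baat, which joins bile acids to glycine or taurine, fell by 0.40 with sucrose at adequate copper (SE 0.10, limma adjusted p = 0.00676) and by 0.29 with low copper at 10% sucrose (SE 0.10, limma adjusted p = 0.0474). It was the only called member of that list in either comparison, and the slide block gave -0.24 and -0.16. Of 6 measured deconjugation enzymes, the sulfatase Arsg was called in both, at 0.93 (SE 0.17, limma adjusted p = 0.00115) and 1.03 (SE 0.17, limma adjusted p = 0.000816), with 0.20 and 0.58 under the slide block. Of 5 measured relatives that handle glutathione, Gdap1l1 and the prostaglandin E synthase Ptges were called above in both, from levels well above background in 2 and 3 of the 6 control rats. Of 27 measured regulators and genes induced with phase II enzymes, 0 were called above and 2 below for sucrose at adequate copper. These were the liver transcription factor Cebpa at -0.72 (SE 0.24, limma adjusted p = 0.0390) and Cyp2b2, a target of the xenobiotic receptor CAR, at -0.58 (SE 0.21, limma adjusted p = 0.0495). Under the slide block these were -0.21 and -0.78. That list's median was -0.19.

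Markers of some other cells moved in the same comparisons. Of 9 neutrophil markers 6 were measured, and 4 were called above with sucrose at adequate copper (list median 2.33) and 2 with low copper at 10% sucrose (list median 1.35). The medians were 2.20 and 0.92 with slide as a block. Their mean levels in control rats went down to -6.38, and of all genes below -4 the comparisons called 37.1% and 38.6% above. Their summed level ran from -0.48 to 8.23 with adequate copper and 30% sucrose, from -1.14 to 6.43 with low copper and 10% sucrose, from -1.24 to 4.65 with both changes and from -1.51 to 0.018 in control rats. Outside control, the highest sum of each diet was mostly Lcn2, at 8.14, 6.36 and 4.60 in the same rats. S100a8 stood at 3.18, 0.19 and -2.46 in them. The sum adds signals of different probes and was not read as an amount of neutrophils. Of 10 measured markers of T, B and NK cells, 5 were called above in each of the 2 comparisons, with list medians of 0.56 and 0.52 that became -0.27 and -0.035 with slide as a block. Of 6 measured red blood cell markers 2 were called above for sucrose and 0 for copper by limma, with a median of 1.30 for sucrose that became 1.63 with the block. Of 9 measured stellate and fibroblast markers 2 and 1 were called above for sucrose and copper, with medians of 0.16 and -0.047. Of 9 measured macrophage markers 1 was called above in each, with medians of 0.37 and 0.22. Of 6 measured endothelial markers 1 was called above in each, with medians of 0.035 and -0.076. Of 6 measured bile duct markers 0 were called in either, with medians of 0.10 and 0.33. Over all genes 18.4% and 18% were called above. The B cell marker Cd79a was not well above background in any control rat. The 12 hepatocyte markers gave 0 calls in either by limma, with medians of -0.14 and -0.13. The part of these cells in the member differences was not tested.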

How the data were processed

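Liver RNA of 24 rats was measured on one-colour Agilent arrays. Agilent Feature Extraction 10.7.3.1 gave the spot values and placed probes on rn4, per the file headers. The processed signal as deposited is a spot intensity from which background was subtracted and trends across the array were removed, with no scaling between arrays. The authors' table is a score with median 0 and interquartile range 1 on every array, as its values show, and the step that made this scale is not given in the sources used here. Per the file headers the spot marks (well above background, saturated, outlier) are of the unit other and served as marks only.

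Controls and outlier-marked spots (0.652%) were left out, log2 signals were centred on the 75th percentile of each array, and the brightest kept probe stood for a gene. Using R 4.3.3 and data.table (version 1.17.8), limma 3.58.1 fitted diet means over all 18641 genes, and p-values were adjusted by Benjamini-Hochberg at 0.05. Figures were drawn with matplotlib 3.10.9, pandas 2.3.3 and numpy 2.4.6. The fit was tested on simulated data. Replicate numbers were not used to pair rats in the main fit. Deviations of same-numbered rats correlated from -0.29 to 0.36. Rats of different numbers were not set beside them, so these values do not decide whether the numbers pair rats.

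Named were up to 10 called members each way per comparison, or the 3 with the smallest p where none was called, the 6 brightest members and a fixed list of members. The text adds other members and values for each family. The members and lists were chosen with earlier results of these data known. Alternatives were normexp (offset 50), quantile normalization, the authors' table (put on a log2 scale by an assumed scale and a floor of 5), other filters, other rules for probes, slide or replicate blocks, array weights, only the groups compared, each rat left out, and 2 rats left out together. Genome sequence was not used here.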

Additional observations from a re-analysis of the deposited data

Results flagged for a closer look

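In each diet every tested member was examined for a rat standing apart from the other 5, by the gap to the nearest rat over the range of the diet. The gap exceeded the 95% limit of Dixon's test (0.625) in 8 of 172 groups, and chance alone gives about 1 in 20. Of the 8, 3 were in rat 5 with adequate copper and 30% sucrose. It lay low for Gstm2 at 2.63 (next rat 4.01), for Mgst3 at 3.35 (next 4.28) and for Ugt2a3 at 0.60 (next 1.48). Rat 2 with low copper and 10% sucrose lay low for Gstt2 at 1.83 (next 2.26) and for Ugt2b37 at 4.28 (next 5.04). These are the 2 rats with the highest S100a8. The 4-hydroxynonenal enzyme Gsta4 stood low at 4.73 in rat 2 with both changes (next 4.95) and high at 5.27 in control rat 2 (next 5.04). Sult1c2a stood low at 0.77 in control rat 5 (next 1.42).

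The copper difference itself differed between the sucrose levels for 3 members, by the interaction term in limma. The interactions were -1.30 for Gstm6l, -1.24 for Sult2a2 and -0.87 for Ugt1a9. Blocking on slide gave -0.75 for Gstm6l, -1.003 for Sult2a2 and -0.31 for Ugt1a9, and none of the 3 was called. With that block 10 genes of the whole array were called for the interaction.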

How the results depend on the processing

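Counts of called members are given first for the planned settings that moved them, with the number of all genes called in parentheses where it helps to read them. Slide as a block left 0 for the interaction below 0 (10 genes), 0 for low copper at 10% sucrose above 0 (0 genes), and 0 above and 0 below 0 for sucrose at adequate copper (0 genes). Slide as a random block gave 2 for copper at 10% sucrose (2267 genes), and 1 above (1184) and 0 below 0 (47) for sucrose at adequate copper. Quantile normalization gave 1 for the interaction below 0 (1657 genes), 1 above (1561) and 1 below 0 (549) for copper at 10% sucrose, and 1 above (1581) and 1 below 0 (1036) for sucrose. The authors' table gave 1 for the interaction (1616), 2 for copper (1542), and 1 above (1545) and 1 below 0 (918) for sucrose. With normexp these were 1 for the interaction above 0 (367), 2 for copper above 0 (1977) and 1 for sucrose below 0 (382). Array weights (lowest 0.417) gave 1 for mean copper (860), 3 for the interaction above 0 (587), 1 for copper at 10% sucrose below 0 (355), 5 above (3824) and 5 below 0 (923) for sucrose, and 1 above (1966) and 2 below 0 (160) for both changes. The mean of probes gave 1 for the interaction above 0 (383), the filter on all arrays 2 for copper at 10% sucrose (1797 of 14835 genes), and no filter 1 for sucrose below 0 (355 of 26278). Fitting only the groups compared gave 1 for sucrose below 0 (390), and 1 above (941) and 1 below 0 (45) for both changes. Without 2 rats, added after the data were seen, both changes had 1 below 0 (17). The cause of these shifts was not tested.

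Of the 18 bright members, low copper at 30% sucrose kept 7 above 0 with the slide block, and the interaction 14. Copper at 10% sucrose had 5 with that block, 3 with the random block, 1 in the authors' table, 1 with the mean of probes, 3 with array weights and 3 without 2 rats. Sucrose at adequate copper had 2 with normexp and 2 in the authors' table. With the slide block 4 differences reversed, to -0.13 (Gsta2, low copper at 30% sucrose), -0.67 (Gsta2, 30% sucrose at low copper), -0.22 (Gstm6l, sucrose at adequate copper) and -2e-04 (Ugt2b17, low copper at 30% sucrose).

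The replicate number as a block, though the numbers were not taken to pair rats, gave 3 calls for copper at 10% sucrose, 3 for the interaction, and 3 above and 1 below 0 for sucrose. Leaving out each rat gave 0 to 3 calls for the interaction above 0 (1 without rat 2 of both changes, rat 1 with adequate copper and 30% sucrose or rat 6 with low copper and 10% sucrose, 2 without rat 2 with adequate copper and 30% sucrose, 3 without control rat 6) and 2 to 4 below 0. For copper at 10% sucrose it gave 2 to 4 above 0 (2 without rats 3 or 5 of low copper or control rats 1, 3 or 5) and 0 to 1 below 0 (1 without control rat 6). For sucrose it gave 3 to 4 above 0 and 1 to 2 below 0 (1 without rats 1, 3, 4 or 6 of that diet or control rats 1, 2 or 5). For both changes it gave 0 to 1 above 0 (1 without rat 4 of that diet, rats 3 to 6 with low copper and 10% sucrose or control rat 5) and 0 to 1 below 0 (1 without rats 2 or 6 with low copper and 10% sucrose). The bright members above 0 numbered 18 to 18 for the interaction, 16 to 18 for low copper at 30% sucrose, 0 to 3 for copper at 10% sucrose (3 without rat 2 and 1 without rat 3 of low copper, 1 without control rat 2, 2 without control rats 5 or 6) and 0 to 2 for sucrose at adequate copper (0 without rats 1 or 6 of that diet or control rats 1 or 4, 2 without rats 3 or 4 or control rat 6). Over all settings, the 44 named member values, some of them within-slide differences, were kept in 1138 cases. The call was lost in 76 and gained in 19, the direction reversed in 4, and 1 within-slide difference moved. Each called value lost its call or reversed in at least 1 setting. For low copper at 10% sucrose the call was lost in 16 of 35 settings for Sult4a1 and 18 of 35 for Sult2a2. For sucrose at adequate copper it was lost in 18 of 36 for Mgst1. Kept means the same direction and side of the threshold, also for a value that stayed uncalled. For within-slide differences, which have no test, it means a shift within the SD between rats. A probe not well above background has only a bound, as for Sult4a1, and 1 slide carries most of each diet.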
